A study of Mus musculus with 25 samples.

Results

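The mir-28 family of microRNAs was followed through 3 hairpin precursors, mmu-mir-28a, mmu-mir-708 and mmu-mir-151 (mir-28a, mir-708 and mir-151 below), in mouse blood at 5 ages. They are 3 of the 1193 precursors in the deposited count table, of which 855 did not pass the filter on low counts and were not tested. All 3 members passed it. The members form a named microRNA family and were selected on results of this same table that were already known, the rise of mir-28a with age and the difference of mir-708 between 30 and 2 months. Changes of the members with age are therefore given with their standard errors as descriptions, without p-values. Blood came from male C57BL/6 mice, an inbred laboratory strain, of 2, 9, 15, 24 and 30 months, with 5 separately numbered libraries of small RNA per age. No treatment or genotype is named in the labels, which give age as the only difference between the groups. They do not state that each library is a different mouse, so the spread between libraries may be partly technical.

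MicroRNAs are cut from a hairpin as short mature strands that pair with messenger RNAs, mainly through the seed at bases 2 to 8, and lower their output. The members of this family lie in introns of genes with other functions, and an intronic microRNA is often made together with its host transcript. miR-28 is known from germinal centre B cells and, in human cells, from control of the thrombopoietin receptor. miR-708 is known from the response to endoplasmic reticulum stress, and miR-151 from cell migration in human liver cancer, where it acts beside its host gene. Whole blood holds red cells, platelets and several kinds of white cell. In such bulk samples, fewer cells of a type and less microRNA per cell cannot be told apart.

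The mature strands below are shown because the shared seed ties mir-28a and mir-708 together and because their letters show how closely the reads of both resemble each other. They were taken from RefSeq on the mouse assembly GRCm38.p6, which holds both arms of mir-28a and mir-708 and 1 strand of the relative mir-28b. Capitals mark the seed, and in miR-28b they mark the same 7 letters where they stand there.
mmu-miR-28a-5p: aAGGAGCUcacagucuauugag
mmu-miR-708-5p: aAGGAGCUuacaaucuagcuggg
mmu-miR-28b: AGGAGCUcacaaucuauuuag
mmu-miR-28a-3p: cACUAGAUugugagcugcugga
mmu-miR-708-3p: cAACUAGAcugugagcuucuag

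The 5p strands of mir-28a and mir-708 had the same seed, and they were the only 2 of 1738 mature strands in the RefSeq table with these letters at bases 2 to 8. Over 22 aligned bases 16 were identical, and the 6 differences from miR-28a-5p to miR-708-5p were C9U, G13A, U18G, U19C, G20U and A21G, counted from 1 at the 5′ end of miR-28a-5p. All of them lie outside the seed. The relative miR-28b starts 1 base later and had 19 of 21 aligned bases in common with miR-28a-5p, with the differences G13A and G20U. The seeds of the 3p strands of mir-28a and mir-708 differed from the 5p seed and from each other. Both 3p seeds hold the letters ACUAGA, which start 1 base later in miR-708-3p. No strand of mir-151 was compared here, and it is described by its counts.

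mir-28a lies at chr16:24827855-24827940, plus strand of GRCm38.p6, in an intron of Lpp, which encodes a protein of focal adhesions. mir-708 lies at chr7:96249424-96249532, plus strand, in an intron of Tenm4, a teneurin gene of the cell surface. mir-151 lies at chr15:73254815-73254882, minus strand, in an intron of Ptk2, the gene of focal adhesion kinase, and within an intron of 1700085D07Rik on the opposite strand. These positions are those of RefSeq and GENCODE vM21, while the sources used here do not name the build of the authors. The deposited table has 1 value per hairpin, so the arms cannot be separated.

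Library totals ranged from 4884058 to 24253236 counts. The smallest were 24 months replicate 4 with 4884058 and 30 months replicate 3 with 5746508 counts, and these libraries recur below. Levels are given as counts-per-million (CPM) values with library sizes scaled by the trimmed mean of M-values (TMM), a method that sets aside the most extreme precursors. A floor of 3 counts corresponds to between 0.118 and 0.528 CPM, depending on the library, and covers counting error only. Red cell markers (mir-451a, mir-144 and mir-486a) summed to between 268513 and 516101 CPM, while the liver marker mir-122 stayed between 0 and 1.13 CPM. Muscle markers (mir-1a-1, mir-133a-1 and mir-206) summed to between 3.34 and 116 CPM, and epithelial markers (mir-205 and mir-200c) to between 4.51 and 11.6 CPM.

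The 3 members were read at very different depths. Over the 25 libraries mir-151 had 314875 counts, mir-28a 5287 and mir-708 199. mir-151 therefore made up 98.3% of the family's reads, or 98.7% when counts were divided by hairpin length. It ranked at place 39 of the tested precursors by mean CPM, with mir-28a at place 146 and mir-708 at place 320. The kit ligates adapters with unequal efficiency for different sequences, so shares between members are shares of reads. The summed family level followed mir-151 and averaged 741 ± 68.0, 759.9 ± 81.1, 738 ± 139, 1022 ± 222 and 888 ± 262 CPM at 2, 9, 15, 24 and 30 months (SD, n = 5 each).

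mir-28a was close to flat up to 15 months and higher at 24 and 30 months. Its level was 10.1, 10.6, 11.6, 9.56 and 11.1 CPM in the libraries of 2 months, replicates 1 to 5. It was 11.2, 12.5, 9.98, 14.1 and 11.2 CPM at 9 months. It was 10.8, 12.3, 9.55, 13.7 and 12.9 CPM at 15 months. The libraries of these 3 ages overlapped, with 2 of 9 months and 3 of 15 months above all libraries of 2 months. At 24 months the values were 26.6, 19.5, 14.04, 13.5 and 19.7 CPM. At 30 months they were 13.99, 18.0, 18.0, 14.2 and 20.1 CPM. All 10 libraries of the 2 oldest ages lay above all 5 libraries of 2 months. The range of 24 months overlapped with those of 9 and 15 months, and the range of 30 months with that of 9 months. By mean level the order of ages was 24, 30, 15, 9 and 2 months, and of the neighbours in this order only 30 and 15 months did not overlap. Mean levels with their SD over 5 libraries were 10.6 ± 0.821, 11.8 ± 1.58, 11.8 ± 1.67, 18.7 ± 5.31 and 16.9 ± 2.65 CPM in order of age.

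**Figure D1:**
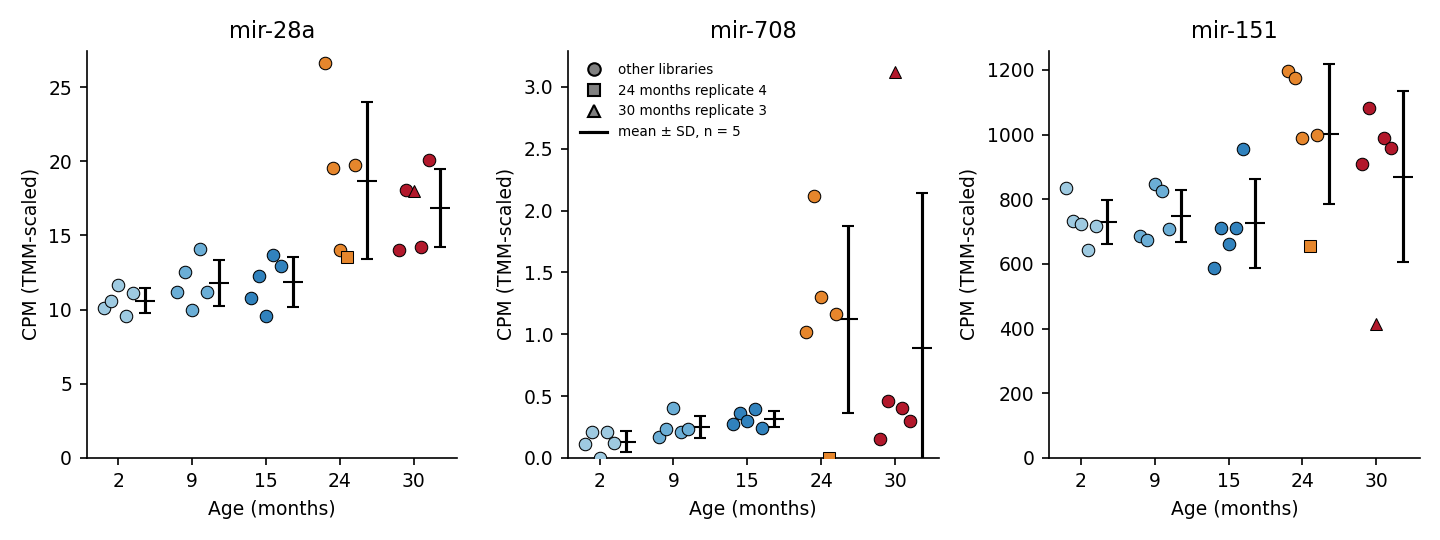
Level of each member in every library, in CPM with TMM-scaled library sizes, against age in months. Each point is 1 library, bars are mean ± SD (n = 5), squares and triangles mark the 2 smallest libraries, and the lower bar of mir-708 at 30 months is cut off at 0. mir-28a is above 13 CPM in all libraries of 24 and 30 months, and also in 9 months replicate 4 and 15 months replicate 4. mir-708 is highest in 30 months replicate 3 and in 4 libraries of 24 months, and it is 0 in 24 months replicate 4. mir-151 is lowest in 30 months replicate 3.

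mir-708 was near the limit of detection in young blood and clearly counted only in 5 libraries. It had 2, 3, 0, 4 and 2 counts at 2 months. It had 3, 5, 5, 3 and 3 counts at 9 months and 5, 7, 7, 6 and 3 at 15 months. At 2 months 3 of 5 libraries were below the floor of 3 counts, and at 9 and 15 months all were at or slightly above it. At 24 months the counts were 22, 34, 33, 0 and 16, and at 30 months they were 2, 5, 22, 4 and 3. High values were thus found in 4 of 5 libraries of 24 months and in 1 of 5 libraries of 30 months. These same 5 libraries were the ones that carried mir-708 past the filter, which asked for 0.650 CPM in 5 libraries, so its higher level in them was a condition for being tested. The library without a count at 24 months was replicate 4, in which 0 counts allow up to 0.528 CPM, less than in the other 4 libraries of that age.

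Pooled over the libraries of each age, mir-708 had 11, 19, 28, 105 and 36 counts at 2, 9, 15, 24 and 30 months. In CPM of the unscaled library totals this was 0.117, 0.235, 0.308, 1.47 and 0.728. The exact 95% Poisson intervals, which cover counting error only, were 0.0583 to 0.209 at 2 months, 0.142 to 0.368 at 9 months, 0.204 to 0.445 at 15 months, 1.20 to 1.78 at 24 months and 0.510 to 1.01 at 30 months. Without 30 months replicate 3 the rate at 30 months was 0.320, with an interval of 0.175 to 0.538, which overlaps those of 2, 9 and 15 months. The order of ages by mean CPM was 24, 30, 15, 9 and 2 months, and every pair of neighbours in it overlapped. At 15 months alone all 5 libraries, at 0.242 to 0.397 CPM, lay above the 2-month libraries, at 0 to 0.213 CPM. In raw counts these 2 ages overlapped, with 3 to 7 at 15 months and 0 to 4 at 2 months. In CPM the libraries of 24 and 30 months overlapped with those of 2 months through 24 months replicate 4 and 30 months replicate 1.

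mir-151 was high at every age, and its log2 changes relative to 2 months were the smallest of the 3 members. The 2-month libraries held 834, 731, 725, 643 and 719 CPM. Those of 9 months held 687, 674, 846, 824 and 708 CPM, and those of 15 months 586, 712, 663, 710.5 and 956 CPM. These ages overlapped throughout, with means of 730.4 ± 67.9, 748 ± 81.0 and 725 ± 139 CPM (SD, n = 5 each). The 24-month libraries held 1195, 1174, 988, 654 and 999 CPM, and the 30-month libraries 908, 1081, 413, 991 and 958 CPM. In each of the 2 oldest ages 4 of 5 libraries lay above all libraries of 2 months and 1 lay among or below them, and this 1 was the smallest library of its age. With all libraries the means of these ages were 1002 ± 217 and 870.2 ± 263 CPM. Leaving it out gave a 24-month mean of 1089 ± 111 CPM and a 30-month mean of 984 ± 73.1 CPM (SD over 4 libraries). The order of ages by mean level was 24, 30, 9, 2 and 15 months, and all neighbours overlapped.

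Differences between ages were fitted with edgeR over all tested precursors and 25 libraries, with an adjusted p threshold of 0.05. At 9 against 2 months 0 of the 3 members passed, where 2.07% of all tested precursors did. At an unadjusted edgeR p under 0.05 there were also 0 members, against 26 of all tested precursors. By DESeq2 there were 0 members, against 8 of all. At 15 against 2 months 0 members passed, where 1.48% of all did. Unadjusted there were 0 members, against 20 of all, and by DESeq2 0 members, against 5 of all. At 24 against 2 months 2 of 3 passed, mir-28a and mir-708, where 12.1% of all did. Unadjusted there were 3 members, against 83 of all, and by DESeq2 2 members, against 53 of all. At 30 against 2 months mir-28a and mir-708 passed again, where 14.2% of all did. Unadjusted there were 2 members, against 90 of all, and by DESeq2 2 members, against 55 of all. Since the members were selected with such differences known, nothing is read from these counts. For CPM without overlap between an age and 2 months, the counts were 0 of 3 members at 9 months against 3.25% of all tested precursors, 1 of 3 at 15 months (mir-708) against 2.37%, 1 of 3 at 24 months (mir-28a) against 10.4%, and 1 of 3 at 30 months (mir-28a) against 10.7%. For mir-708 at 15 months this holds in CPM only, since its raw counts of 3 to 7 overlapped with 0 to 4 at 2 months.

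For mir-28a the log2 change relative to 2 months was 0.15 (SE 0.16) at 9 months, 0.16 (SE 0.16) at 15 months, 0.82 (SE 0.16) at 24 months and 0.67 (SE 0.16) at 30 months. The last 2 correspond to 1.77-fold and 1.59-fold higher levels. The 95% interval was 0.50 to 1.14 at 24 months and 0.35 to 0.99 at 30 months. Its change exceeded that of 93.8% of tested precursors at 24 months and of 90.5% at 30 months, while the median precursor changed by -0.0037 and -0.0379. Because mir-28a was selected with its rise known, a high place was partly fixed in advance, and nothing is read from it. Scaling by library totals instead of TMM gave 1.18 and 0.92, a scaling under which the median of all tested precursors was 0.36 and 0.20. With sequencing lane as a factor the changes were 0.86 (SE 0.17) and 0.60 (SE 0.17).

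For mir-708 the log2 change relative to 2 months was 0.85 (SE 0.85) at 9 months, 1.22 (SE 0.79) at 15 months, 3.15 (SE 0.66) at 24 months and 2.46 (SE 0.75) at 30 months. This was 8.85-fold at 24 months and 5.50-fold at 30 months, both resting on 11 counts at 2 months. Without 30 months replicate 3 the change at 30 months was 1.29 (SE 0.67) and did not pass, and the call also ended without 2 months replicate 1, 3 or 5. Without 24 months replicate 4 the change at 24 months was 3.39 (SE 0.60). With lane as a factor the changes were 2.87 (SE 0.59) at 24 months and 2.46 (SE 0.65) at 30 months.

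For mir-151 the log2 change relative to 2 months was 0.03 (SE 0.19) at 9 months, -0.01 (SE 0.19) at 15 months, 0.46 (SE 0.19) at 24 months and 0.25 (SE 0.19) at 30 months. None passed with all libraries. The 95% interval at 24 months was 0.08 to 0.84, and at 30 months it was -0.13 to 0.63. Without 24 months replicate 4 the change at 24 months was 0.63 (SE 0.20) and passed. Without 30 months replicate 3 the change at 30 months was 0.49 (SE 0.17) and did not pass. Leaving out both libraries in 1 fit gave 0.63 (SE 0.14) at 24 months and 0.49 (SE 0.14) at 30 months, and both passed. This alternative was chosen after seeing the data. With lane as a factor the changes were 0.49 (SE 0.20) and 0.13 (SE 0.20).

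**Figure D2:**
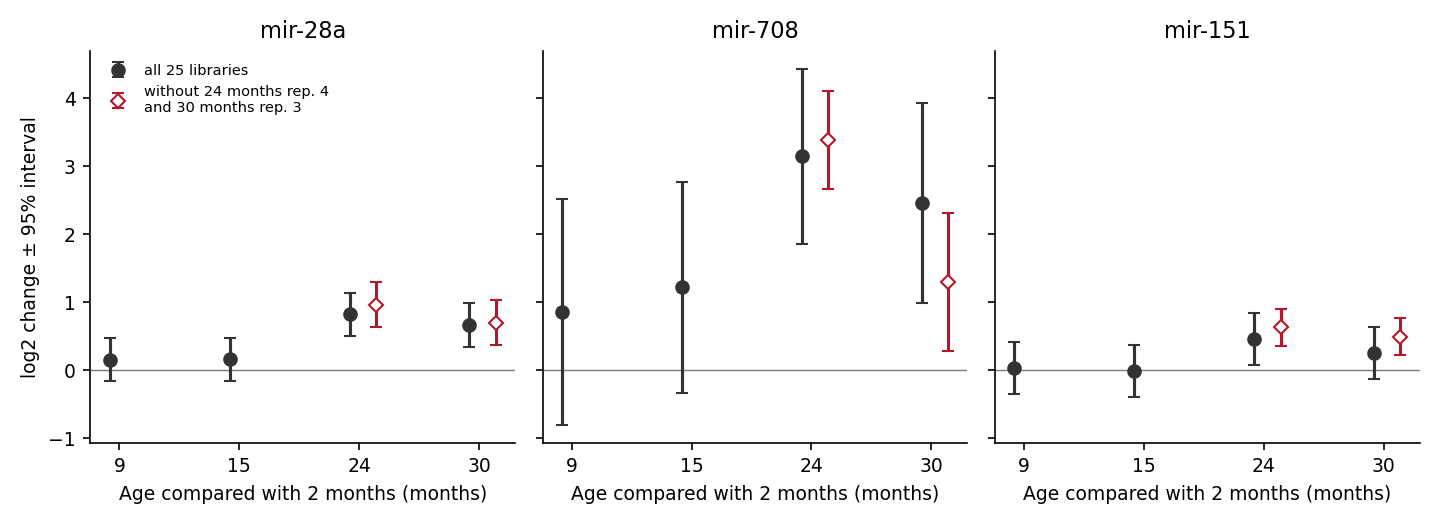
Fitted log2 change of each member relative to 2 months (vertical axis) at 9, 15, 24 and 30 months (horizontal axis), with 95% intervals. Filled circles use all 25 libraries, and open diamonds leave out 24 months replicate 4 and 30 months replicate 3. The change of mir-708 at 30 months is 2.46 with all libraries and 1.29 without these 2, while that of mir-151 is 0.25 and 0.49.

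**Figure D3:**
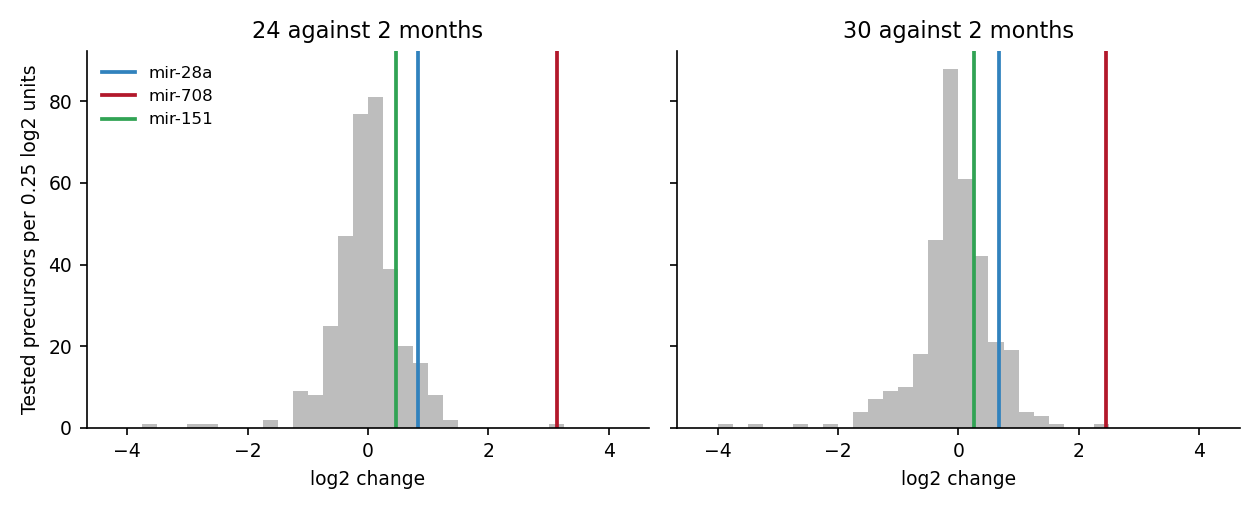
Number of tested precursors (vertical axis) in each interval of 0.25 log2 units of change (horizontal axis), at 24 and at 30 months relative to 2 months, with the members drawn as vertical lines. With all 25 libraries mir-708 is at the upper end of both distributions. At 30 months its change is 2.46, and 1.29 without 30 months replicate 3. mir-28a is in the upper flank, and mir-151 is nearest to the bulk of the tested precursors. mir-708 was tested only through its 5 high libraries, and the members were selected with such differences known. Their places are therefore descriptions only.

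As 1 slope over all ages, mir-28a changed by 0.29 log2 units per 10 months (SE 0.06), mir-708 by 1.07 (SE 0.23) and mir-151 by 0.14 (SE 0.06). Here 2 of 3 members passed, mir-28a and mir-708, where 19.8% of all tested precursors did. Without 30 months replicate 3, mir-151 had a slope of 0.21 (SE 0.05) and passed as well. Over 9 to 30 months, a fit of 20 libraries that leaves out the 2-month group, the slopes were 0.35 (SE 0.09) for mir-28a, 1.05 (SE 0.33) for mir-708 and 0.19 (SE 0.09) for mir-151. Only mir-28a passed there, 1 of 3 members, where 2.66% of all did. With lane as a factor its slope over 9 to 30 months was 0.30 (SE 0.10) and did not pass. Fits that left out 1 library at a time gave 0.31 to 0.39, and 7 of these 20 fits ended the call.

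The ratio of mir-28a to mir-151 within a library does not depend on how libraries are scaled. There were 1.21, 1.44, 1.61, 1.49 and 1.55 reads of mir-28a per 100 reads of mir-151 at 2 months. The values were 1.63, 1.86, 1.18, 1.71 and 1.57 at 9 months, and 1.84, 1.72, 1.44, 1.93 and 1.35 at 15 months. They were 2.23, 1.66, 1.42, 2.07 and 1.98 at 24 months. They were 1.54, 1.67, 4.36, 1.43 and 2.09 at 30 months. The ages overlapped throughout, and the value of 4.36 stood alone. In order of age the means were 1.46 ± 0.151, 1.59 ± 0.253, 1.66 ± 0.251, 1.87 ± 0.325 and 2.22 ± 1.22 (SD, n = 5 each). Without 30 months replicate 3 the last was 1.68 ± 0.289 (SD, n = 4).

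**Figure D4:**
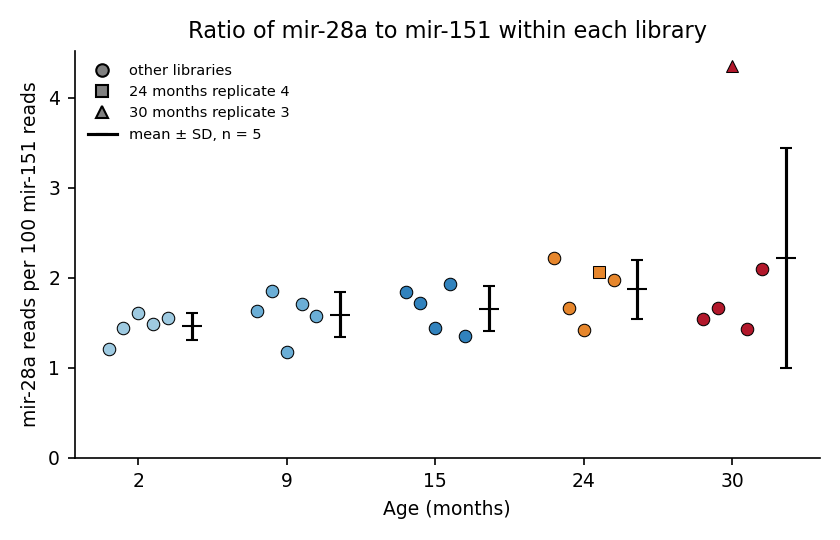
Reads of mir-28a per 100 reads of mir-151 in every library (vertical axis) against age in months, with mean ± SD (n = 5). 30 months replicate 3 has 4.36, and the other 24 libraries lie between 1.18 and 2.23.

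Co-variation of the members across the 25 libraries depended on the pair and on single libraries. Pearson's r of log2 CPM was 0.61 between mir-28a and mir-708, 0.51 between mir-28a and mir-151 and 0.18 between mir-708 and mir-151. Spearman's rho was 0.53, 0.60 and 0.40 for the same pairs. For deviations from the mean of each age the r values were 0.31, 0.28 and -0.10. All are descriptions over libraries that share age, depth and scaling, and those of mir-708 rest on few counts. The r of mir-28a with mir-151 was 0.79 without 30 months replicate 3, and within ages it was 0.55 without that library and 0.11 without 24 months replicate 4. The r of mir-708 with mir-151 was 0.60 without the 2 libraries farthest from the median of mir-708, and 0.40 with library totals as the scale.

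The precursors most like mir-28a across the 25 libraries were mir-203 (r = 0.81), known from skin epithelium, mir-1843a (r = 0.76), mir-3074-2 (r = 0.76) and mir-24-2 (r = 0.72) of the mir-23a cluster. mir-3074-2 and mir-24-2 overlap on opposite strands and cannot be told apart here. Over all other tested precursors the median r with mir-28a was -0.0762, and the upper 5% began at 0.59, or at 0.42 within ages. The precursors named were picked as the highest across libraries, so their place above the median was fixed. Within ages, r with mir-203 was 0.39, and 0.21 without 24 months replicate 4. The precursor mir-150, a microRNA of mature lymphocytes, had r = 0.19 across all libraries but 0.72 for deviations within ages, the second highest of all, and was picked after its value was seen. In 24 months replicate 4 mir-150 stood at 64.0 CPM, its lowest value, against 429.7 CPM in the median library of that age. Without that library the within-age r was 0.65.

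The precursors most like mir-151 were mir-99b (r = 0.86), mir-125a (r = 0.81), mir-339 (r = 0.81) and mir-330 (r = 0.79). mir-99b and mir-125a are transcribed from 1 cluster, known in blood stem cells. For deviations within ages these r values were 0.90, 0.84, 0.85 and 0.77, and without 30 months replicate 3 they were 0.81, 0.72, 0.80 and 0.70. The median r of mir-151 with all other tested precursors was -0.0140 across libraries and 0.0208 within ages. The upper 5% began at r = 0.55 across libraries and 0.64 within ages. The precursors named were picked as the highest across libraries, so their place above the median was fixed. For mir-708, with 0 to 34 counts per library, the most alike were mir-203 (r = 0.67), mir-501 (r = 0.61), mir-338 (r = 0.59) and mir-1249 (r = 0.59), which at such counts is no finding.

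**Figure D5:**
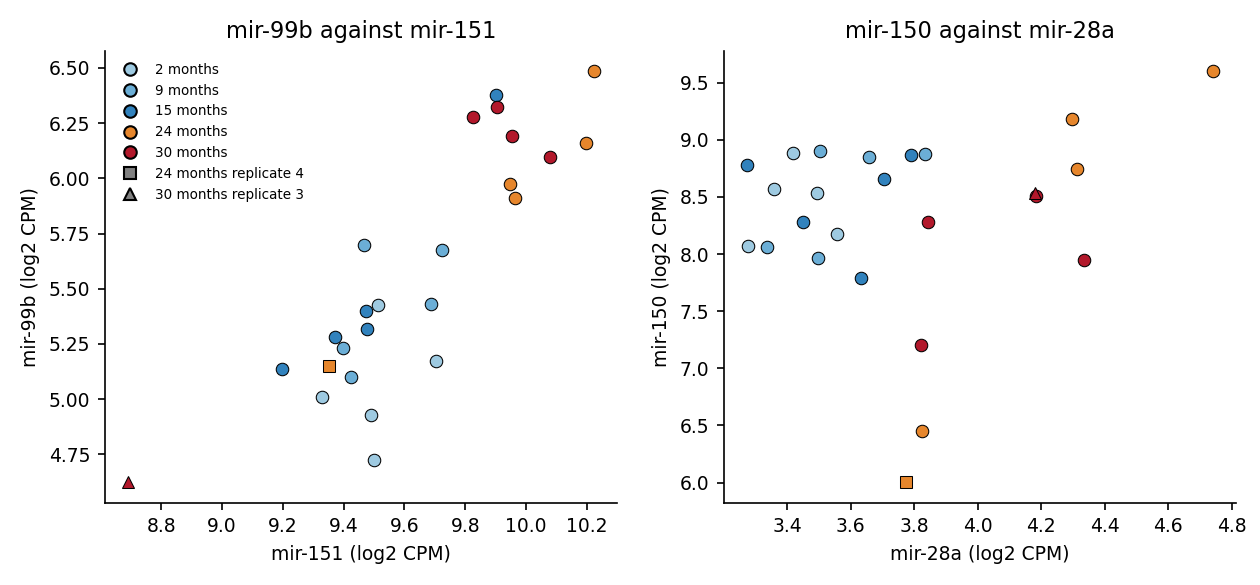
Each point is 1 library. Left, mir-99b against mir-151 in log2 CPM. Right, mir-150 against mir-28a in log2 CPM. Colours give the age, the square is 24 months replicate 4 and the triangle is 30 months replicate 3. mir-99b and mir-151 run along 1 line (r = 0.86), while mir-150 and mir-28a have r = 0.19 over all libraries and 0.72 within ages, with mir-150 lowest (64.0 CPM) in the square.

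The other relatives of the family were barely counted in blood. mir-28b, whose strand differs from miR-28a-5p at 2 of 21 bases, and mir-7080, which holds the seed letters from base 3, had 0 counts in all 25 libraries. mir-28c had 3 counts in all and mir-3547 had 8, both named as relatives in the list used here. None of these 4 was tested. miR-12180-3p also holds the seed letters from base 1. No precursor in the deposited count table was matched to it, so it has no count here.

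Lists of other microRNAs of blood cells were set beside the family. Over all tested precursors 31 rose and 17 fell at 30 against 2 months with edgeR, which is 14.2%. Of the same precursors 90 had an unadjusted edgeR p under 0.05 at that age, and DESeq2 called 55. Of 13 tested microRNAs of germinal centre and other B cells, 1 rose at 30 against 2 months and 0 fell, with a median log2 change of -0.0273, against -0.0379 over all tested precursors. The 1 was mir-23b, at 16.3 ± 1.5 CPM in 30-month and 10.9 ± 2.43 CPM in 2-month blood (SD, n = 5 each, log2 change 0.58, SE 0.14, edgeR adjusted p = 0.00810). The count of 1 in 13 does not exceed the share over all tested precursors. mir-155, of activated lymphocytes, had a log2 change of 0.97 (SE 0.43) and did not pass. Of 8 lymphoid microRNAs 0 passed at 30 months with edgeR, where 4 had an unadjusted p under 0.05 and DESeq2 called 2, with a median of -0.17. The smallest adjusted p values there were those of mir-146a (log2 change 1.15, SE 0.40), of inflammatory signalling, and mir-31 (log2 change -0.76, SE 0.29). Of 13 megakaryocyte and platelet microRNAs 3 rose and 2 fell, with a median of 0.02. The rises were led by mir-223 (log2 change 1.44, SE 0.17) and mir-10a (log2 change 1.21, SE 0.18).

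Among 8 myeloid microRNAs 5 rose and 0 fell at 30 months, with a median log2 change of 0.64, and 8 red cell microRNAs had 1 fall and a median of -0.12. The myeloid rises were led by mir-223, which the platelet list also holds, and mir-23a (log2 change 0.90, SE 0.17), and the red cell fall was that of mir-144 (log2 change -1.41, SE 0.35). At 24 against 2 months 26 of all tested precursors rose and 15 fell, or 12.1%. Of the lists, 1 of 13 B cell microRNAs rose, 3 of 13 platelet microRNAs rose and 1 fell, 5 of 8 myeloid microRNAs rose, and 2 of 8 red cell microRNAs fell. The summed level of the myeloid markers mir-223, mir-146a and mir-23a was 112 to 125 CPM at 2 months, 173 to 259 at 9, 137 to 183 at 15, 217 to 293 at 24 and 218 to 326 at 30 months. This sum was above all 2-month libraries already at 9 and 15 months. mir-28a and mir-151 overlapped with 2 months at both of these ages. mir-708, on few counts, overlapped with 2 months at 9 months but not at 15 months. The lymphoid markers mir-150, mir-342 and mir-155 summed to 289 to 508, 273 to 507, 239 to 495, 81.1 to 817 and 159 to 412 CPM in order of age. The platelet markers mir-126a, mir-199a-1 and mir-199a-2 summed to 12.3 to 17.3, 4.62 to 17.04, 7.81 to 19.3, 5.66 to 13.6 and 3.13 to 8.20 CPM in order of age. Their log2 changes at 30 against 2 months were -1.35, -1.66 and -0.996. The list of 13 platelet microRNAs had 3 rises and 2 falls at that age, with a median log2 change of 0.02. This sum therefore describes the 3 markers only and not the platelet list. The part of these shifts in the levels of mir-28a, mir-708 and mir-151 was not tested.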

How the data were processed

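Small RNA of 25 libraries was prepared with a TruSeq kit, per the labels' protocols. The deposited table holds the authors' raw read counts per microRNA precursor. The submitters' processing notes list bcl2fastq 1.8.4, Trimmomatic 0.36 and SAMtools 1.3.1-9 but no roles. The sources used here name no aligner, counter, annotation release, build or strand setting, so the treatment of reads that match several hairpins is unknown.

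Counts were tested with edgeR 4.0.16 (R 4.3.3): filterByExpr by age, TMM factors, robust quasi-likelihood F tests and Benjamini-Hochberg adjustment over all tested precursors. SE is the log2 change divided by the square root of F. Correlations used log2 CPM with a prior count of 2. Python 3.11.15 with pandas 2.3.3 made the summaries, and the fit was tested on simulated data. Alternatives were other scalings, DESeq2 1.42.0, limma-voom 3.58.1, other filters, lane as a factor and fewer libraries. Chi-square per degree of freedom was at least 124.9 in all 50 pairs of same-age libraries, so no pair agreed within counting noise; this cannot tell libraries of the same mouse from those of different mice. Index sequences largely follow the ages, so index and age cannot be told apart.

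The members and lists were chosen with earlier results of these data known. The text names the members, their relatives, the 4 precursors most correlated with each member, the cell type markers, and up to 2 per list by adjusted p at 30 months.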

Additional observations from a re-analysis of the deposited data

Results flagged for a closer look

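One library of 30 months, replicate 3, stood far from the other 4 of its age in 4 of the 25 combinations of measure and age that were examined, by the gap to its nearest neighbour relative to the range. Chance gives about 1 such case in 20 groups, and the 4 measures share their counts. In this library mir-708 stood at 3.12 CPM, against 0.150 to 0.460 CPM in the other 4 libraries, the highest of all 25. mir-151 stood at 413 CPM, against 908 to 1081 CPM, the lowest of all 25. The summed level of the 3 members was 434 CPM, against 922 to 1100 CPM. The ratio was 4.36 reads of mir-28a per 100 reads of mir-151, against 1.43 to 2.09. Its mir-28a level of 18.0 CPM lay within the range of its age. The library had 5746508 counts, the second fewest, and whether depth or blood composition plays a part was not tested.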

How the results depend on the processing

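No paired analysis was possible because replicate numbers were given in sample order and link no mice of different ages. The direction of mir-28a and mir-708 held in all alternatives run, and their calls at 24 months and over 2 to 30 months passed in each that gave a value, which supports nothing for members chosen with these results known. For mir-708 at 30 months the log2 change was 1.92 with limma-voom, 2.44 without a filter, 2.54 with only the 10 libraries compared and 1.29 without both smallest libraries, none of which passed the test, and 1.29 to 2.79 when 1 library was left out, with 4 of 10 such fits losing the call (without 2 months replicate 1, 3 or 5 or 30 months replicate 3). A filter of 10 CPM gives no value for mir-708, which passed the filter used only through its 5 high libraries. For mir-28a at 30 months the call ended without a filter (0.64). Its slope over 9 to 30 months lost the call with DESeq2's size factors (0.31), without a filter (0.29) and with lane (0.30), and ran from 0.31 to 0.39 without single libraries. That of mir-708 passed with DESeq2 (1.08), was 0.62 with limma-voom, and ran from 0.81 to 1.22 without single libraries, passing without 30 months replicate 1 or 4. For mir-151, 24 months passed with library totals (0.82) and without both smallest libraries (0.63), with 0.39 to 0.63 without single libraries. 30 months passed without both (0.49). The slope over 2 to 30 months passed with library totals (0.24) and without both (0.23), with 0.12 to 0.21 without single libraries, and that over 9 to 30 months without both (0.26), with 0.17 to 0.27. Near 0, mir-151 changed sign at 15 months with library totals (0.13), without a filter (0.0837) and with only the 10 libraries (0.0250), ranging from -0.11 to 0.0576 without single libraries, and at 9 months with lane (-0.0179), ranging from -0.0141 to 0.0694. The r of mir-28a with mir-151 was 0.73 with library totals and 0.37 without the 2 libraries farthest from the median of mir-28a. The cause of these shifts was not tested. Other settings, single libraries left out included, gave 3 to 8 called precursors at 9 months against 7 in the fit reported, 2 to 5 against 5 at 15 months, 24 to 72 against 41 at 24 months, 15 to 57 against 48 at 30 months, 39 to 89 against 67 for the slope over all ages and 4 to 16 against 9 for that over 9 to 30 months, the 16 and 15 being without 30 months replicate 3 or 4. Library totals gave 69 higher and 3 lower at 24 months, against 26 and 15 with TMM, and 51 and 6 at 30 months, against 31 and 17. Counts of mir-708 limit its precision at every age.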

Other observations

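In 30 months replicate 3, the 4 precursors most like mir-151 were low together with it, which their choice by correlation over libraries that include this one partly fixed. mir-99b stood at 24.5 CPM, against 68.4 to 79.8 CPM in the other 4 libraries of 30 months. mir-125a stood at 28.5 CPM, against 61.1 to 80.3 CPM. mir-339 stood at 33.2 CPM, against 58.8 to 86.4 CPM, and mir-330 at 17.7 CPM, against 24.2 to 42.4 CPM. The precursors most like mir-28a lay within or near the range of their age in the same library, which their choice partly fixed too. mir-203 stood at 28.9 CPM, against 22.0 to 27.5 CPM, mir-1843a at 30.0 CPM, against 25.1 to 31.9 CPM, and mir-24-2 at 41.7 CPM, against 42.1 to 49.1 CPM. In 24 months replicate 4, mir-99b, mir-125a and mir-339 stood at 35.3, 38.0 and 38.2 CPM, each the lowest of its age but near the values of 2 months, with medians of 32.1, 33.1 and 37.2 CPM there. mir-330 stood at 24.8 CPM in that library, also the lowest of its age but above the 2-month range of 11.9 to 21.1 CPM.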
